A study of Mus musculus with 9 samples.

Results

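The genes described here are 10 that mark the CA3 pyramidal neurons and the mossy cells of the hippocampus, namely Dkk3, Cpne4, Prss35, Iyd, Bok, Cdh24 and Elavl4, and Calb2, Csf2rb2 and Glipr1. They were taken by symbol from the deposited table of 57010 genes, each matched exactly 1 entry, and all 10 passed the filter on low counts that left 17967 genes for testing. RNA came from hippocampal tissue of C57BL/6J mice, with 3 libraries in each of 3 groups. In the Sham group the L5 spinal nerve was exposed without being tied and solvent was given. In the SNL group a spinal nerve was ligated, which models neuropathic pain, and the solvent was given too. The CBD group had the same ligation and received cannabidiol, a plant cannabinoid, by intraperitoneal injection for 15 days at 5 mg/kg. All mice thus had surgery, the comparison of CBD with SNL lies within ligated mice, and a group given cannabidiol without ligation is not analysed here. The labels used here state neither age nor sex, nor whether a library is 1 animal or a pool, so the p-values measure the spread between these libraries, which may be technical.

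CA3 is the field of pyramidal neurons that receives the mossy fibres of dentate granule cells and sends its own axons to CA1 and back onto itself. Mossy cells are glutamatergic neurons of the dentate hilus that also receive mossy fibres and project back to the granule cells. The 2 cell types lie side by side and share many transcripts, which is why they are often read together. Several of these genes are not confined to them: Dkk3 is also made by CA1 pyramidal neurons, Elavl4 by most neurons, and Calb2 by interneurons, Cajal-Retzius cells, newborn granule cells and neurons of the thalamus and hypothalamus.

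The libraries summed to between 16972620 and 20470546 expected counts. Levels are given as CPM, a gene's counts relative to the library size after scaling by the trimmed mean of M-values (TMM). The tissue held hippocampal transcripts in every library: 10 CA1 pyramidal genes summed to between 505 and 1308 CPM and 14 dentate granule cell genes to between 499 and 1038 CPM. It also held transcripts from outside the hippocampus, unevenly. Pmch, the precursor of a hypothalamic peptide, was at 200.4 CPM in the library SNL 1, at 43.9 CPM in SNL 2 and at 146 CPM in CBD 1. The other 6 libraries had at most 0.797 CPM. The libraries SNL 1, SNL 2 and CBD 1 are therefore followed below as the 3 with Pmch, and results are also given without them.

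Differences were tested with edgeR's quasi-likelihood F test over all 9 libraries, with a threshold of 0.05 on p-values adjusted (Benjamini-Hochberg) across all 17967 genes. None of the 10 genes passed that threshold in any of the 3 comparisons, and the same test called 0 of the 17967 genes (a share of 0%) in each. At an unadjusted p under 0.05 it returned 2478 genes in SNL against sham, 2462 in CBD against SNL and 2925 in CBD against sham. The DESeq2 Wald test called 363 genes (2.02%), 156 genes (0.868%) and 380 genes (2.11%) in the same order, and among the 10 it called Elavl4 in CBD against sham only. Higher and lower below describe group means and single libraries. In tissue RNA, fewer cells of a type and less RNA per cell cannot be told apart.

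**Figure D1:**
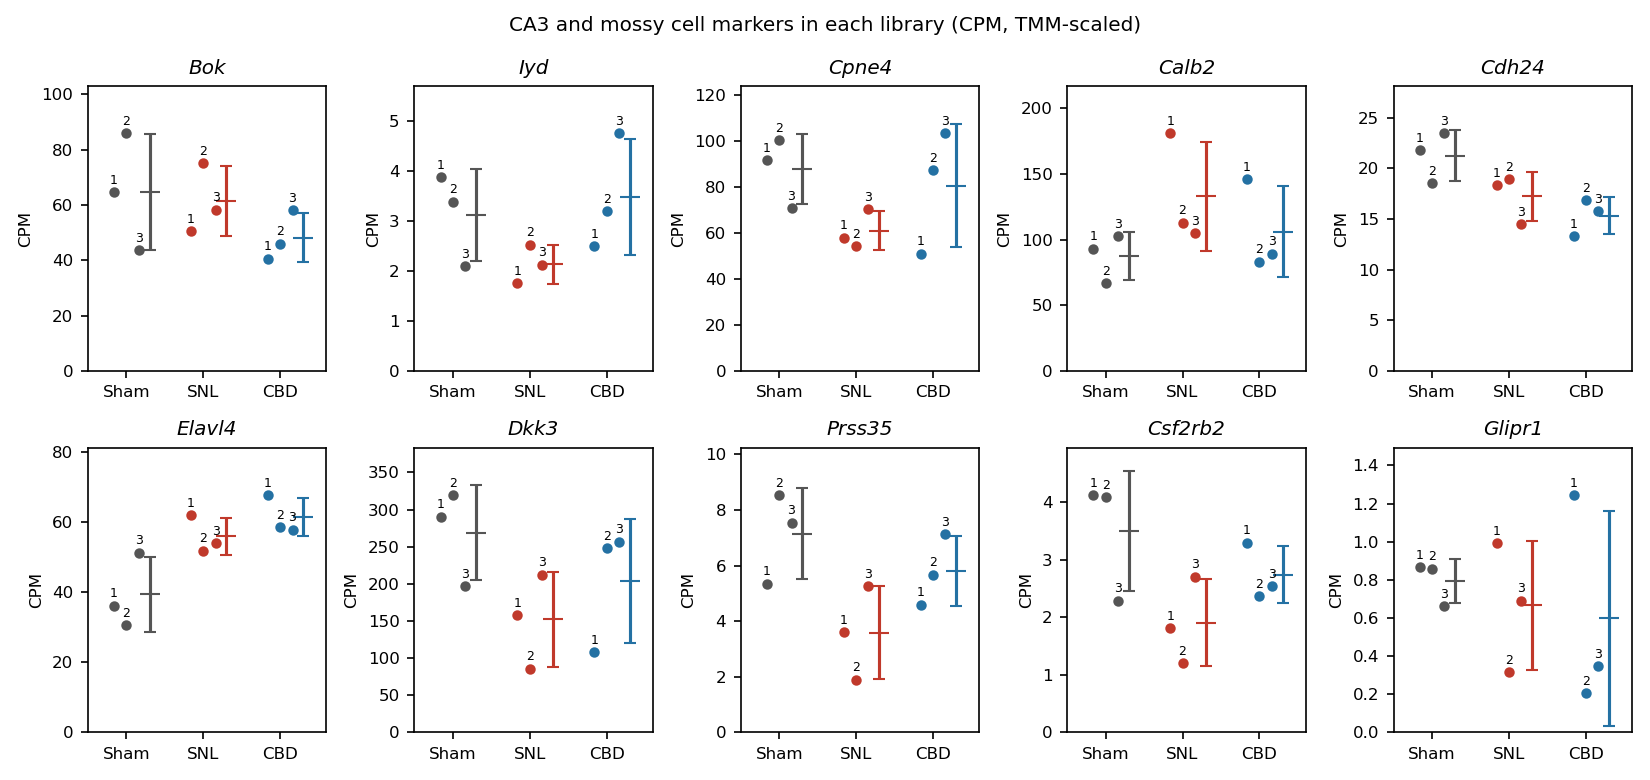
Level of each of the 10 genes in CPM (y axis, from 0) in the Sham, SNL and CBD libraries (x axis); points are libraries with their replicate number, and the bar beside them is the mean ± SD (n = 3). Elavl4 is the gene whose 3 Sham libraries, at 30.7 to 51.3 CPM, all lie below the 6 libraries of ligated mice.

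Read per kilobase of transcript, which allows genes to be compared, Calb2 and Dkk3 were the most abundant of the 10. In Sham, Dkk3 stood at 80.1 CPM per kilobase ± 19.1 (SD, n = 3), Calb2 at 61.2 ± 12.9, Bok at 44.1 ± 14.4 and Cpne4 at 22.1 ± 3.86. Dkk3 and Calb2 overlapped by their SDs, and Calb2 and Bok did too, while Cpne4 lay apart from Bok by more than the SD of either. Elavl4 followed at 9.49 ± 2.57 CPM per kilobase and Cdh24 at 6.09 ± 0.714. Prss35 at 2.08 ± 0.474 and Iyd at 1.97 ± 0.584 could not be ordered, nor could Csf2rb2 at 0.740 ± 0.222 and Glipr1 at 0.673 ± 0.0978. In SNL, Calb2 stood at 92.8 CPM per kilobase ± 29.2, Dkk3 at 45.3 ± 18.9 and Bok at 41.8 ± 8.58, and Dkk3 overlapped both of the others by its SD. In CBD the values were 74.1 ± 24.2 for Calb2 and 60.8 ± 24.9 for Dkk3, within each other's SD. Transcript lengths came from an older annotation, so these levels are approximate.

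Of the CA3 genes, Dkk3 had the highest counts, between 1628 and 6323 expected counts a library. Dkk3 encodes a secreted glycoprotein of the dickkopf family. It stood at 290.5, 319.6 and 197 CPM in Sham 1 to 3, at 158, 85.6 and 212 CPM in SNL 1 to 3, and at 108, 248 and 257 CPM in CBD 1 to 3. Sham 1 and Sham 2 lay above the other 7 libraries, the 3 libraries with Pmch were the lowest, and SNL 3 lay above Sham 3, so the groups overlapped. The log2 fold change was -0.82 (SE 0.37) in SNL against sham, with an adjusted p of 0.361. It was 0.43 (SE 0.37, adjusted p 0.635) in CBD against SNL and -0.40 (SE 0.37, adjusted p 0.615) in CBD against sham. Leaving out 1 library, those last values ran from 0.14 (without SNL 2) to 0.75 (without SNL 3) and from -0.59 (without CBD 3) to -0.09 (without CBD 1). Without the 3 libraries with Pmch, a fit in which SNL 3 is the only SNL library, the SNL against sham value was -0.33 (SE 0.25).

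Cpne4 encodes copine 4, of a family of proteins that bind membranes in a calcium-dependent way. It stood at 91.7, 100.3 and 70.7 CPM in Sham 1 to 3, at 57.9, 54.2 and 70.4 CPM in SNL 1 to 3, and at 50.9, 87.2 and 103 CPM in CBD 1 to 3. All 3 SNL libraries lay below all 3 Sham libraries, although SNL 3 and Sham 3 were nearly level, and CBD spanned the whole range. The log2 fold change in SNL against sham was -0.53 (SE 0.23, adjusted p 0.356), and it was 0.40 (SE 0.23, adjusted p 0.468) in CBD against SNL. As with Dkk3, the 3 libraries with Pmch were the 3 lowest. In CBD against sham the value was -0.12 (SE 0.23) and turned to 0.13 (SE 0.17) without those 3 libraries.

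Prss35, a gene of the trypsin-like serine protease family, was the member with the widest range among those above 1 CPM, with a ratio of 4.51 between its highest and lowest library. Prss35 stood at 5.35, 8.54 and 7.55 CPM in Sham, at 3.62, 1.89 and 5.26 CPM in SNL and at 4.60, 5.68 and 7.12 CPM in CBD, in replicate order. The SNL libraries all lay below the Sham libraries, and CBD overlapped both. The group means were 7.15 CPM ± 1.63 (SD, n = 3) in Sham, 3.59 ± 1.68 in SNL and 5.80 ± 1.27 in CBD. In SNL against sham the log2 fold change was -0.99 (SE 0.34, adjusted p 0.270), a ratio of 0.503, and without the 3 libraries with Pmch it was -0.43 (SE 0.32). In CBD against SNL it was 0.69 (SE 0.34, adjusted p 0.394), and 0.28 (SE 0.34) without those libraries.

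Iyd encodes iodotyrosine deiodinase, known from the thyroid for recovering iodide from iodinated tyrosines. Its counts were low, from 30 to 82 a library. Iyd stood at 3.88, 3.39 and 2.09 CPM in Sham, at 1.75, 2.52 and 2.12 CPM in SNL and at 2.49, 3.20 and 4.75 CPM in CBD, in replicate order. Sham 3 lay among the SNL libraries, and CBD 1 was just below SNL 2, so no groups separated. The log2 fold change was -0.54 (SE 0.32, adjusted p 0.472) in SNL against sham and 0.70 (SE 0.32, adjusted p 0.367) in CBD against SNL. That last value had the smallest adjusted p of the 10 genes in CBD against SNL, and it was 0.90 (SE 0.47) without the 3 libraries with Pmch.

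Bok, a relative of the cell death effectors Bax and Bak, and Cdh24, a type II cadherin of cell-cell adhesion, had the smallest differences between SNL and sham among the CA3 genes. Bok stood at 64.7, 85.9 and 43.7 CPM in Sham, at 50.7, 75.3 and 58.3 CPM in SNL and at 40.6, 46.1 and 58.1 CPM in CBD. Sham held both the highest value and one of the lowest, and the log2 fold change in SNL against sham was -0.08 (SE 0.24, adjusted p 0.909). It was -0.35 (SE 0.24, adjusted p 0.544) in CBD against SNL. In CBD against sham it was -0.43, and ran from -0.64 to -0.17 on leaving out 1 library. Cdh24 was the steadiest of the 10 within groups, with a pooled SD of 0.18 on the log2 scale. It stood at 21.8, 18.6 and 23.5 CPM in Sham, at 18.3, 18.9 and 14.5 CPM in SNL and at 13.3, 16.9 and 15.8 CPM in CBD. The CBD libraries all lay below the Sham libraries. The log2 fold change in CBD against sham was -0.47 (SE 0.15, unadjusted p 0.00997, adjusted p 0.217), and it was -0.37 (SE 0.15) without the 3 libraries with Pmch. With offsets for GC content and transcript length the value was -0.17 (SE 0.16). Cdh24 transcripts are 61.2% G and C, and Bok transcripts 61.0%. Fold changes in CBD against sham followed GC content across all genes with a Spearman rho of -0.57. Genes are not independent replicates, and the part of GC content in the Cdh24 and Bok values was not tested.

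Elavl4 went the other way. It encodes HuD, a neuronal RNA-binding protein that stabilises transcripts with AU-rich elements, and its own transcript, at 38.9% G and C, had the lowest GC content of the 10. Elavl4 stood at 36.2, 30.7 and 51.3 CPM in Sham, at 62.0, 51.8 and 53.9 CPM in SNL and at 67.7, 58.6 and 57.9 CPM in CBD. All 6 libraries of ligated mice lay above all 3 Sham libraries, with Sham 3 only just below SNL 2. The group means were 39.4 CPM ± 10.7 (SD, n = 3) in Sham, 55.9 ± 5.35 in SNL and 61.4 ± 5.49 in CBD. In CBD against sham the log2 fold change was 0.64 (SE 0.17), a ratio of 1.56, with an unadjusted p of 0.00384 and an adjusted p of 0.213. The DESeq2 Wald test gave 0.64 with an adjusted p of 0.0365, and limma voom with sample weights gave 0.69 with an adjusted p of 0.0345. In this comparison DESeq2 called 380 of all 17967 genes (2.11%), and limma voom called 1051 of them. Over the 15 alternatives the adjusted p ran from 0.0345 to 0.701. It was highest with composition offsets (GC content and transcript length), where the log2 fold change was 0.39 (SE 0.16). The part of GC content in the Elavl4 value was not tested. In SNL against sham the log2 fold change was 0.51 (SE 0.17, adjusted p 0.270), and the comparison shares its Sham libraries with the one before. Without the 3 libraries with Pmch the values were 0.57 (SE 0.20) in CBD against sham and 0.46 (SE 0.25) in SNL against sham.

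The other genes of the Elavl family did not share one pattern. Elavl1, which is made in all tissues, varied little, from 61.9 to 73.6 CPM over the 9 libraries. Elavl2, a neuronal member, had a log2 fold change of 0.49 (SE 0.18, adjusted p 0.244) in CBD against sham. Elavl3, also neuronal, had -0.26 (SE 0.12, adjusted p 0.314) in the same comparison, with all 3 CBD libraries below the Sham libraries. No stretch of 50 bases of the Elavl4 transcript was found in a transcript of another gene.

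Of the mossy cell genes, Calb2 was by far the most abundant. It encodes calretinin, a calcium-buffering protein of the EF-hand kind. Calb2 stood at 93.1, 67.0 and 103 CPM in Sham, at 181, 113 and 105 CPM in SNL and at 146, 83.2 and 89.2 CPM in CBD. Every SNL library lay above every Sham library, by a small step between SNL 3 and Sham 3, while CBD 2 and CBD 3 lay within the Sham range. The 3 highest libraries were SNL 1, CBD 1 and SNL 2, the 3 with Pmch. The log2 fold change was 0.60 (SE 0.27, adjusted p 0.356) in SNL against sham and -0.32 (SE 0.27, adjusted p 0.615) in CBD against SNL. Without those 3 libraries it was 0.27 (SE 0.22) in SNL against sham. In CBD against sham it was 0.28 (SE 0.27) with all libraries and -0.015 (SE 0.18) without the 3.

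Csf2rb2 and Glipr1, the other mossy cell genes, were low. Csf2rb2 encodes the beta chain that in the mouse serves the receptor for interleukin 3. Its neighbour Csf2rb encodes the beta chain shared with other cytokine receptors and is known from myeloid cells. The 2 lie on chromosome 15 in opposite orientation (GRCm38, chr15:78282507-78305721 on the minus strand for Csf2rb2 and chr15:78325752-78353847 on the plus strand for Csf2rb), and their coding sequences are 95.4% identical over 2629 aligned bases. The sequences below show how alike they are, because reads from such stretches cannot be given to either gene with certainty. Of the stretches of 50 bases in the Csf2rb2 transcript, 19.0% also occur in Csf2rb, and 7.20% of those of 100 bases do. The first pair is the 120-base window, inside 1 coding exon of each gene, in which they differ most, with the 16 differing bases in capitals (GRCm38, chr15:78294345-78294464 on the minus strand and chr15:78338867-78338986 on the plus strand). The last is a 120-base window in which they do not differ at all (chr15:78284752-78284871 in Csf2rb2), and it need not be the only one.
Csf2rb2, most different window: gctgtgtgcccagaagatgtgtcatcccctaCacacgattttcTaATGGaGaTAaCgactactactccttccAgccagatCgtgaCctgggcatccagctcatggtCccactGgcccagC
Csf2rb, most different window: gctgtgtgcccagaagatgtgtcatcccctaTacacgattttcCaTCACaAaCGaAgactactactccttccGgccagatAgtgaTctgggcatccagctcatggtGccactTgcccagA
Csf2rb2 and Csf2rb, identical window: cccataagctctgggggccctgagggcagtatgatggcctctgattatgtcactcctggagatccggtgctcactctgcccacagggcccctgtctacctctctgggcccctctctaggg

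Csf2rb2 stood at 4.13, 4.09 and 2.29 CPM in Sham, at 1.81, 1.21 and 2.71 CPM in SNL and at 3.30, 2.37 and 2.55 CPM in CBD, from 23 to 81.18 expected counts a library. Sham 1 and Sham 2 were the highest, and Sham 3 lay below SNL 3. SNL against sham gave a log2 fold change of -0.87 (SE 0.34, adjusted p 0.305), and CBD against SNL gave 0.52 (SE 0.34, adjusted p 0.529). Without the 3 libraries with Pmch those values were -0.36 (SE 0.41) and -0.14 (SE 0.43). Csf2rb ran from 1.68 to 2.07 CPM in Sham and from 1.52 to 2.63 CPM in SNL, with a log2 fold change of 0.05 (SE 0.30) between them. The counting may have moved reads between the pair, so the values of both are uncertain.

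Glipr1, a gene of the CAP family of secreted and membrane proteins, was at the edge of what these libraries can show, with 4.22 to 22.88 expected counts a library. Its levels ran from 0.663 to 0.867 CPM in Sham, from 0.316 to 0.992 CPM in SNL and from 0.206 to 1.25 CPM in CBD. The highest and the lowest library both belonged to CBD. For Glipr1 the log2 fold change in SNL against sham was -0.26 (SE 0.61). Leaving out 1 library, its value in CBD against sham ran from -1.52 (without CBD 1) to 0.0085 (without CBD 2), so no direction can be given.

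**Figure D2:**
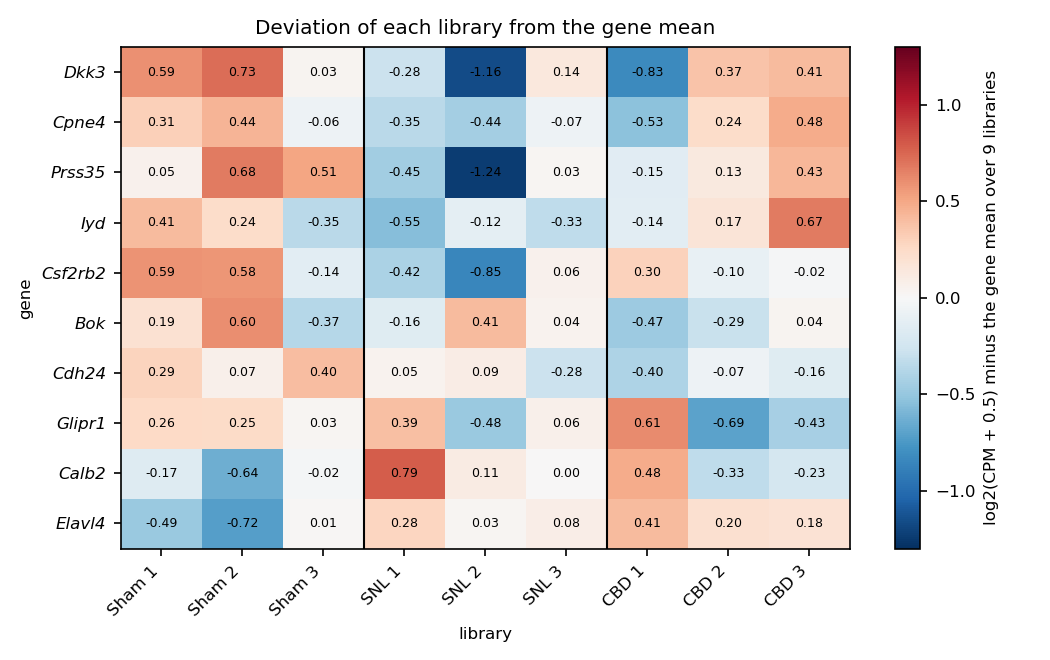
Deviation of each library (columns, in the groups Sham, SNL and CBD) from the gene's mean over the 9 libraries, on the log2(CPM + 0.5) scale, for the 10 genes (rows); red is above and blue below the mean. Dkk3, Cpne4 and Prss35 are below their means in SNL 1, SNL 2 and CBD 1, and Calb2 is above its mean in the same libraries. Elavl4 is below its mean only in Sham 1 and Sham 2.

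Set side by side, some of the genes most alike over the 9 libraries carried different labels, CA3 or mossy cell. Likeness was measured as the mean absolute difference between 2 genes' centred log2 values over the 9 libraries, as a description with no test. The most alike of the 45 pairs were Iyd and Cpne4 (0.22), Calb2 and Elavl4 (0.24), Cpne4 and Dkk3 (0.24) and Dkk3 and Prss35 (0.26). The least alike were Calb2 and Dkk3 (0.81). Csf2rb2, listed as a mossy cell gene, lay nearer to Cpne4 (0.31) than to Calb2 (0.55). All pairs share the same 9 libraries.

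SNL 1, SNL 2 and CBD 1 were the 3 lowest libraries for 3 of the 10 genes, Cpne4, Dkk3 and Prss35, and the 3 highest for 1, Calb2. Over all 17967 genes the same libraries were the 3 lowest for 5.75% and the 3 highest for 2.91%. Among other regions, they were the 3 lowest for 6 of 10 CA1 genes, 6 of 14 dentate granule cell genes, 3 of 9 other CA3 genes and 0 of 12 interneuron genes. The 10 CA1 genes summed to 531 CPM in SNL 1, to 544 CPM in SNL 2 and to 505 CPM in CBD 1, and to at least 821 CPM in each of the other 6 libraries. The 14 thalamus and habenula genes, all present in every library, summed to between 457 and 681 CPM in Sham, between 778 and 2088 CPM in SNL and between 742 and 1045 CPM in CBD. The 12 hypothalamus genes summed to at most 14.1 CPM in Sham and in the 3 ligated libraries without Pmch, while SNL 1 had 324 CPM, SNL 2 had 75.6 CPM and CBD 1 had 419 CPM. Hcrt, which defines a hypothalamic cell type, was at 0 in 4 of the libraries without Pmch. The part that such tissue has in the levels of Dkk3, Cpne4, Prss35 and Calb2 was not tested.

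**Figure D3:**
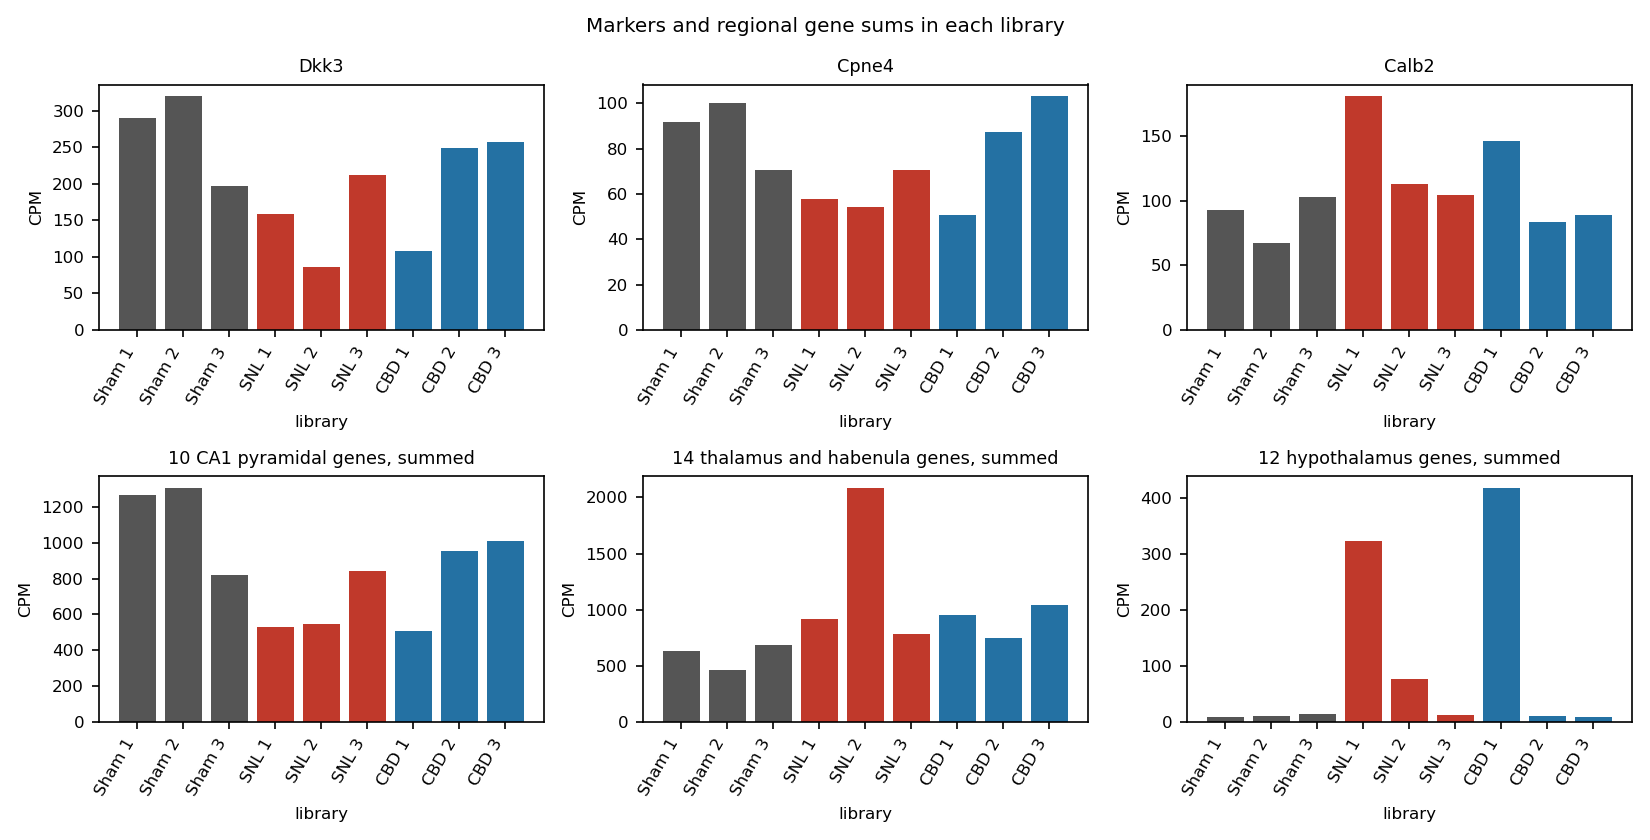
Level in CPM (y axis, from 0) in each library (x axis; grey Sham, red SNL, blue CBD) of Dkk3, Cpne4 and Calb2 and of the summed genes of CA1, of thalamus and habenula and of hypothalamus. SNL 1, SNL 2 and CBD 1 hold the 3 lowest bars for Dkk3, Cpne4 and the CA1 sum and the 3 highest for Calb2 and the hypothalamus sum.

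Other cells that make Calb2 were followed through lists without it. The 12 interneuron genes summed to between 978 and 1152 CPM in Sham, 1091 and 1222 in SNL, and 988 and 1466 in CBD, the highest in CBD 1. The 6 Cajal-Retzius cell genes ran from 80.1 to 108 CPM in Sham, from 74.6 to 101 in SNL and from 84.3 to 113 in CBD. The 5 genes of immature granule cells ran from 48.2 to 65.1 CPM in Sham, from 50.2 to 61.6 in SNL and from 58.3 to 69.0 in CBD. These 3 sums overlapped between SNL and Sham. The thalamus and habenula sum lay above Sham in SNL and also in CBD, whereas Calb2 in CBD overlapped Sham. Reln, which is on both the interneuron and the Cajal-Retzius list, made up much of the latter sum, with 74.9 CPM in Sham 1. The 6 Cajal-Retzius genes did not move together, and 3 were higher and 3 lower in SNL than in Sham. Lhx5 ran from 0.695 to 5.79 CPM and was highest in CBD 1 and SNL 1. Trp73 and Reln were lowest in SNL 1, at 2.39 and 41.9 CPM. The part of any of these cells in the Calb2 level was not tested.

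The genes whose values over the 9 libraries were most like those of Prss35, out of 15928 others with a mean of at least 1 CPM, were A330084C13Rik (0.13), Lpl (0.14), Mctp1 (0.16), 9430053O09Rik (0.17) and Cd109 (0.17). Lpl, lipoprotein lipase, stood at 27.7, 35.3 and 25.1 CPM in Sham, at 14.5, 9.99 and 21.5 CPM in SNL and at 16.2, 22.3 and 28.0 CPM in CBD. Its lowest libraries are those of Prss35, which follows from the choice by likeness.

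The start regions of Iyd and Cpne4 are shown because these were the most alike pair. The windows, from RefSeq on GRCm38.p6, span an annotated transcription start; entries were found for 7 of the 10 genes. Capitals mark matches on either strand to 4 short motifs: TGACG, a core of the site bound by CREB (CGTCA on the other strand), the E-boxes CACGTG and CAGCTG, and TATAAA. The Iyd window is chr10:3540024-3540323 and the Cpne4 window shown is chr9:104569405-104569704, both on the plus strand. Cpne4 has another window, chr9:104587808-104588107, which matches none of the 4 motifs and is not shown.
Iyd: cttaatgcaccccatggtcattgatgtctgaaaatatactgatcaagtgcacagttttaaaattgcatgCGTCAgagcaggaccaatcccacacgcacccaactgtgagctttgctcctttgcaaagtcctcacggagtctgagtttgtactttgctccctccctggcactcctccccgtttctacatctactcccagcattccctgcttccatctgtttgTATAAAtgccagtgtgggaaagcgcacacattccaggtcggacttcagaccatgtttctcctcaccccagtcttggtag
Cpne4: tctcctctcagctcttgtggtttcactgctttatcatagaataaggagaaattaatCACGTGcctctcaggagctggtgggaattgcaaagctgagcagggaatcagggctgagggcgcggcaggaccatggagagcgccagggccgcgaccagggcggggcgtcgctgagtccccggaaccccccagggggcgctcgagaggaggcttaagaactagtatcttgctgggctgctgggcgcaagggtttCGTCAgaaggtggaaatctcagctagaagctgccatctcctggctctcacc

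TGACG was present in 6 of the 11 windows of these genes, belonging to 4 of the 7 (Iyd, Cpne4, Prss35 and Elavl4, which has several windows, some overlapping), and in 20.8% of all 32851 windows. CACGTG was found in Cpne4 (7.15% of all windows), CAGCTG in Elavl4 (16.3%) and TATAAA in Iyd (13.6%). The matches are letters in a window and no evidence of binding.

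**Figure D4:**
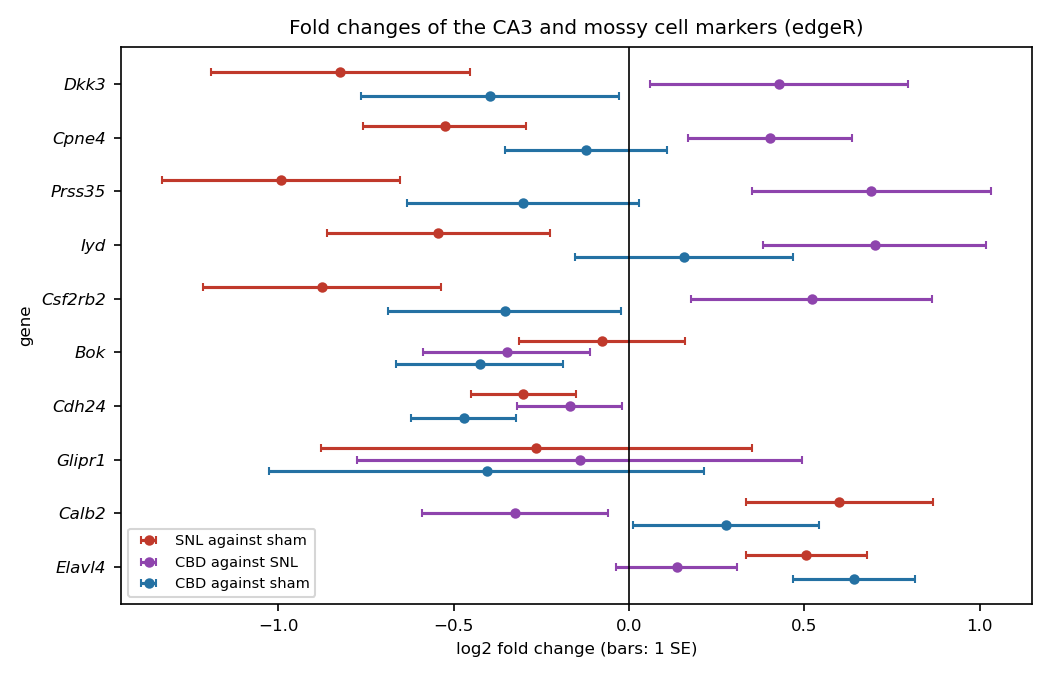
Log2 fold change (x axis; bars are 1 SE) of the 10 genes (y axis) in SNL against sham (red), CBD against SNL (purple) and CBD against sham (blue) by edgeR. None passed an adjusted p of 0.05; Prss35, at -0.99 in SNL against sham, lies farthest from 0.

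The comparison of SNL with sham asks what ligation changed. Of the 10 genes, 8 had a lower and 2, Calb2 and Elavl4, a higher mean in SNL. The median log2 fold change was -0.41, against 0.01 over all genes tested. At an unadjusted p under 0.05, which 13.8% of all genes reached in either direction, there were 4 lower, Prss35, Csf2rb2, Cpne4 and Dkk3, against 7.96% of all genes, and 2 higher, Calb2 and Elavl4, against 5.83%. The groups did not overlap for Cpne4 and Prss35 on the lower side (9.81% of all genes) and for Calb2 and Elavl4 on the higher side (7.94%). Without the 3 libraries with Pmch, which leaves 1 SNL library, the median was -0.32. Leaving out 1 library moved both the count of 6 at an unadjusted p under 0.05 and the count over all genes, 2478 of 17967. The count of 6 became 1 without Sham 1 (1527 of 18367 genes), 1 without SNL 1 (1469 of 18399) and 2 without Sham 2 (1628 of 18380). It was 3 without SNL 2 (2346 of 18417), 6 without SNL 3 (2583 of 18395) and 7 without Sham 3 (3516 of 18382).

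A further 9 genes of CA3 or of CA2 and CA3 together were read beside them. Of these, 7 were lower in SNL than in sham, with a median of -0.56, and 0 passed the adjusted threshold. At an unadjusted p under 0.05 there were 4 lower and 1 higher, against 7.96% and 5.83% of all genes. The groups did not overlap for 5 of the 9 on the lower side, against 9.81% of all genes. Homer3, a postsynaptic scaffold protein, stood at 56.2, 76.3 and 37.5 CPM in Sham and at 23.2, 20.6 and 33.9 CPM in SNL, with no overlap (log2 fold change -1.13, SE 0.26, adjusted p 0.210). Grik4, a kainate receptor subunit enriched in CA3, stood at 60.7, 82.0 and 47.8 CPM in Sham and at 38.3, 23.8 and 45.5 CPM in SNL (-0.83, SE 0.24, adjusted p 0.236). Lower values were not particular to CA3: 13 of 14 dentate granule cell genes (median -0.68) and 10 of 10 CA1 genes (median -0.73) were lower, against 3 of 8 CA2 genes (median 0.10). The 3 other mossy cell genes differed among themselves. Calcrl, the receptor subunit for calcitonin gene-related peptide, which endothelium also makes, had 0.50 (SE 0.17, adjusted p 0.261), the AMPA receptor subunit Gria3 had -0.24 (SE 0.16, adjusted p 0.537), and the dopamine receptor Drd2 had 0.36 (SE 0.62, adjusted p 0.824). The 12 endothelial and pericyte genes summed to between 579.5 and 786 CPM in SNL and between 468 and 551 in Sham. The part of endothelium in the Calcrl level was not tested.

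The comparison of CBD with SNL asks what cannabidiol changed after ligation. Of the 10 genes, 6 had a higher and 4 a lower mean in CBD, with a median log2 fold change of 0.27 against 0.00 over all genes. None had an unadjusted p under 0.05, against 13.7% of all genes tested (6.50% higher and 7.20% lower), and the groups overlapped for all 10, against 9.18% of all genes separated on the higher side and 10.1% on the lower. The largest values were those of Iyd and Prss35, given above. This comparison shares its SNL libraries with the first, so the values of the 2 comparisons are not independent. Both the count of 0 and the count over all genes, 2462 of 17967, moved with the setting. The count of 0 became 5 without CBD 1 (3677 of 18391 genes), 2 without SNL 3 (2083 of 18395) and 1 without SNL 2 (2158 of 18417). It was 3 with no filter on low counts (2945 of 32593) and 5 by limma voom (4990 of 17967). On only the 6 libraries compared it was 1 (2306 of 17439). The median was 0.14 without the 3 libraries with Pmch, 0.11 without SNL 2 and 0.15 with offsets for GC content and length. Among the 9 further CA3 genes 7 were higher (median 0.27), with the smallest p for Trps1, a transcription factor (0.38, SE 0.16, adjusted p 0.342), and St18, another (0.40, SE 0.20, adjusted p 0.392). Of the dentate genes 13 of 14 were higher (median 0.26), and of the CA1 genes 7 of 10 (median 0.31).

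The comparison of CBD with sham sets ligation with cannabidiol beside sham surgery with solvent. Of the 10 genes, 7 had a lower and 3 a higher mean in CBD, with a median of -0.33 against 0.00 over all genes. That median was -0.13 without CBD 1, -0.16 without Sham 2, -0.12 without the 3 libraries with Pmch and -0.20 with the GC and length offsets. At an unadjusted p under 0.05, which 16.3% of all genes reached in either direction, there was 1 higher, Elavl4 (7.41% of all genes), and 1 lower, Cdh24 (8.87%), and the same 2 were the ones whose groups did not overlap (10.6% and 11.1% of all genes). By DESeq2 the 1 call among the 10 was Elavl4, against 2.11% of all genes called in either direction. Of the 9 further CA3 genes 6 were lower (median -0.16). Homer3 again had the smallest p, at 23.0, 28.2 and 22.2 CPM in CBD (-1.21, SE 0.26, adjusted p 0.213), followed by Grik4 (-0.55, SE 0.24, adjusted p 0.298).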

How the data were processed

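Hippocampal RNA was measured in 9 libraries. Per the labels' protocols, TRIzol extraction was followed by a SMARTER mRNA-seq kit. The deposited values are expected counts per gene, not scaled to depth; the submitters' processing notes name RSEM and GRCm39, and no version, aligner or annotation is stated there. Expected counts were rounded, filtered with filterByExpr and scaled by TMM, and tested with edgeR 4.0.16 (R 4.3.3) with 1 factor for 3 groups and 6 residual degrees of freedom. Each SE was obtained as the log2 fold change over the root of its F statistic. DESeq2 1.42.0 and limma 3.58.1 were alternatives. Likeness used log2(CPM + 0.5). Transcript length and GC content, on 98.2% of tested genes, and sequences came from GENCODE M21 (GRCm38) and RefSeq (GRCm38.p6), an older build than the counts.

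The members, lists and tests were chosen with earlier results of these data known. All 10 members are named, with their near copies, up to 2 genes with the smallest p of each list described, and the 5 genes most like the member of widest range. Pmch, Hcrt and Drd2 fall outside that rule and were chosen after their values were seen. The 4 promoter motifs and the offsets for GC content and length were added after seeing the data. Same-numbered libraries did not deviate together (correlations from -0.33 to 0.24), so the numbers were not taken as pairs. The fitting was tested on simulated data in which 200 of the 17967 genes were changed by 1.5, 2 or 4 fold. Of the 1.5-fold changes, 5.97% (SNL against sham), 13.4% (CBD against SNL) and 10.4% (CBD against sham) passed the threshold in the right direction. In that order, the shares were 59.7%, 55.2% and 40.3% at 2 fold and 83.3%, 90.9% and 87.9% at 4 fold.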

Additional observations from a re-analysis of the deposited data

How the results depend on the processing

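None of the 10 genes passed the threshold by edgeR under any scaling, filter, offset or left-out library tried. Of 447 values of single genes under the alternatives, 430 kept their direction and 2 passed the threshold, both Elavl4 in CBD against sham, by DESeq2 and by limma voom, which made the count of members called 1 under each. The count over all genes, 0 by edgeR in each comparison, was 253, 1 and 56 with no filter on low counts (SNL against sham, CBD against SNL and CBD against sham, in that order), 363, 156 and 380 by DESeq2, and 1, 1132 and 1051 by limma voom. It was 1, 2 and 20 without the 3 libraries with Pmch, and 1 for CBD against sham on only the 6 libraries compared. The fit with the replicate number as a block called 0 genes in each comparison, with medians over the 10 genes of -0.47, 0.26 and -0.34. Leaving out 1 library at a time, the count over all genes ran from 0 to 7, from 0 to 2 and from 0 to 17, and the median over the 10 genes from -0.51 to -0.32, from 0.11 to 0.31 and from -0.33 to -0.13; in CBD against sham it was -0.12 without the 3 libraries with Pmch.

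Directions turned for some genes, including Csf2rb2 in CBD against SNL (0.52 in the main test) and Glipr1 in CBD against sham (-0.41), and the cause was not tested. With offsets for GC content and length, CBD against SNL gave 0.0066 for Cdh24 and -0.054 for Elavl4. Without the 3 libraries with Pmch it gave 0.17 for Cdh24 and -0.14 for Csf2rb2, and CBD against sham gave 0.13 for Cpne4 and -0.015 for Calb2. Leaving out 1 library, the log2 fold change of Bok in SNL against sham ran from -0.29 to 0.18, and that of Glipr1 from -0.65 to 0.075. In CBD against SNL Glipr1 ran from -1.26 to 0.27. In CBD against sham it ran from -1.52 to 0.0085, Iyd from -0.13 to 0.34, Cpne4 from -0.34 to 0.12 and Calb2 from -0.026 to 0.42. The low counts of Glipr1, Iyd and Csf2rb2 limit what their values show.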

Other observations

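Among the other 8 copines, the family of Cpne4, Cpne6 and Cpne9 had larger log2 fold changes in SNL against sham than Cpne4 (-0.53), and the other 6 had smaller ones, from -0.47 for Cpne7 to 0.15 for Cpne1. Cpne6, the most abundant of the family per kilobase, stood at 497, 584 and 311 CPM in Sham, at 207, 154 and 366 CPM in SNL and at 212, 333 and 360.1 CPM in CBD. Its 3 lowest libraries were SNL 2, SNL 1 and CBD 1, the 3 with Pmch. The groups overlapped, and its log2 fold change in SNL against sham was -0.94 (SE 0.33, adjusted p 0.276). Cpne9 went the other way, at 47.1, 29.4 and 44.4 CPM in Sham and at 64.3, 101 and 50.1 CPM in SNL, with no overlap (0.84, SE 0.27, adjusted p 0.258). Cpne1 had 0.38 (SE 0.11, adjusted p 0.213) in CBD against sham, with every CBD library above every Sham library. None of these passed the threshold by edgeR.

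Calb1, calbindin, the other calcium buffer often read beside calretinin and a marker of granule cells and CA1, averaged 87.8 CPM over the 3 Sham libraries, 101 CPM over those of SNL and 110.1 CPM over those of CBD. It had a log2 fold change of 0.33 (SE 0.13, adjusted p 0.266) in CBD against sham, while 11 of the 14 dentate granule cell genes, a list that holds it, were lower there.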
